A study of Mus musculus with 6 samples.

Results

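The genes described here are 42 imprinted mouse genes that lie outside the Dlk1-Dio3 region, taken from 18 imprinted clusters or single imprinted loci. A gene was measured through the array probes whose accession belongs to one of its transcripts, which gave probes for 41 of the 42 genes. H19 was read from 5 probes that the files name H19 without an accession, and probes whose accession the RefSeq table does not list were not used for any gene. Such unlisted probes exist for H19, and their values are not given here. The arrays carried probes for 37074 genes and transcribed genomic intervals, and 25421 of these were bright enough to be tested, among them 38 of the 42 imprinted genes.

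The RNA came from J1 cells, a mouse embryonic stem cell line of strain 129S4/SvJae derived from the inner cell mass and adapted to gelatin. One group of 3 samples received 1 µM SC1 for 6 h, and the control group of 3 samples received DMSO, the solvent. SC1, also called pluripotin, is a small molecule described as an inhibitor of ERK1 and of RasGAP. Both groups grew in Knockout Serum Replacement medium with LIF, a cytokine that supports self-renewal, at 1000 U/ml. All cells were of 1 line, and the labels do not state whether replicates were grown separately, so p-values reflect only the variation among these 6 arrays, part or all of which may be technical. The probes do not read the parental allele, so every value is the sum of both alleles. In a bulk sample, fewer cells that express a gene and less of its RNA per cell cannot be told apart.

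Imprinted genes are expressed mainly from the copy inherited from 1 parent. Their clusters are governed by imprinting control regions whose DNA methylation is set in the egg or the sperm and is kept after fertilisation by ZFP57, a zinc finger protein that binds a methylated hexamer and recruits TRIM28. Many clusters pair messenger RNAs with a long noncoding RNA, such as Kcnq1ot1 or Airn, that represses neighbours on the same chromosome. Many imprinted genes regulate growth or act in the placenta, and their methylation is known to be labile in cultured embryonic stem cells.

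Of the 38 tested genes 18 passed limma's test at an adjusted p under 0.05, where 38.4% of all genes and intervals passed. The genes that rose with SC1 were Kcnq1ot1, Tspan32, Usp29, Plagl1, Zrsr1, Peg3, H19 and Airn, 8 genes, where 18.1% of all tested genes rose. The 10 that fell were Sgce, Peg10, Asb4, Ppp1r9a, Snrpn, Magel2, Mkrn3, Mcts2, H13 and Trappc9, where 20.2% of all tested genes fell. The median log2 fold change of the 38 genes, SC1 minus DMSO, was -0.02, against -0.0052 over all tested genes, and the values ran from -1.04 for Sgce to 0.86 for Kcnq1ot1. Passing genes with a change of at least 1.5-fold were 4 of the 38, namely Sgce, Kcnq1ot1, Tspan32 and Usp29, where 11.3% of all tested genes met this rule. The 3 SC1 arrays lay wholly above the 3 DMSO arrays for 10 imprinted genes and wholly below them for 11, and 52.1% of all tested genes had such groups without overlap. By the allele that is expressed in mouse tissues, paternally expressed genes gave 6 higher and 6 lower with 8 not passing. Maternally expressed genes gave 2 higher and 4 lower with 10 not passing. Grb10 and Ddc, whose expressed allele depends on the tissue, did not pass. The allele expressed in these cells was not measured for any gene. Of 5 tested noncoding RNAs, Kcnq1ot1 (read by accession), H19 (read by name) and Airn rose, and Nespas and Peg13 did not pass.

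Start-site windows are shown for Peg3, Usp29, Kcnq1ot1, Tspan32, Plagl1 and Zrsr1, which rose, and for Mcts2 and Snrpn, which fell and hold the ZFP57 hexamer, because pairs of imprinted genes can share a promoter and because control regions hold that hexamer. The windows run from 250 bases before to 50 bases after a transcription start and come from RefSeq on build GRCm38.p6, written 5′ to 3′ on the strand of the gene. Of the 42 genes 33 had at least 1 window, 49 windows in all, and H19, Kcnq1, Peg10, Sgce, Nespas, Impact, Trappc9, Peg13 and Kcnk9 had none. The letters TGCCGC, the ZFP57 hexamer, were searched on both strands and are in capitals (as GCGGCA where they lie on the opposite strand). Peg3 and Usp29 are transcribed away from each other, and their windows share the 263 bases of chr7:6730370-6730632, so both are given.
Peg3, chr7:6730370-6730669, minus strand: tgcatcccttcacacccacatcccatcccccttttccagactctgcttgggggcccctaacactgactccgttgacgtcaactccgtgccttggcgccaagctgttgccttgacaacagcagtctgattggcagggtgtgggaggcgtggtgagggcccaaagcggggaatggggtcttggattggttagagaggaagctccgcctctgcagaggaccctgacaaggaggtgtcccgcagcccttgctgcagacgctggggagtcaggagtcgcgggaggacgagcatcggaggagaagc
Usp29, chr7:6730333-6730632, plus strand: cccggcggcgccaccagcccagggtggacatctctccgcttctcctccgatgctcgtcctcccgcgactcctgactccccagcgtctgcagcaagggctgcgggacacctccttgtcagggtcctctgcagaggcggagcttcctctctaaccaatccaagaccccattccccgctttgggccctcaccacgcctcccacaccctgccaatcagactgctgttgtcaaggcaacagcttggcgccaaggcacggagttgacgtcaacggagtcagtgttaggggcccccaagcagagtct
Kcnq1ot1, chr7:143296498-143296797, minus strand: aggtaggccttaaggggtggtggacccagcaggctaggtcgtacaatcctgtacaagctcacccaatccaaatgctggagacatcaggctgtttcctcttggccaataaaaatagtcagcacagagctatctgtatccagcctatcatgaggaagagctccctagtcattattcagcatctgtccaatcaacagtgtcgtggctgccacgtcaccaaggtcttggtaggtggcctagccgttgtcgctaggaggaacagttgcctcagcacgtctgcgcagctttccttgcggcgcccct
Tspan32, chr7:143004796-143005095, plus strand: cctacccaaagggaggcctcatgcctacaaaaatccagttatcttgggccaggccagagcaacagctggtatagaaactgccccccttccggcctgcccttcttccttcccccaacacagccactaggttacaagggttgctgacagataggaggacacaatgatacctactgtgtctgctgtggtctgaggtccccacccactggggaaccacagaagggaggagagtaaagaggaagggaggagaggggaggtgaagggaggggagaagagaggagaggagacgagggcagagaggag
Plagl1, chr10:13090582-13090881, plus strand: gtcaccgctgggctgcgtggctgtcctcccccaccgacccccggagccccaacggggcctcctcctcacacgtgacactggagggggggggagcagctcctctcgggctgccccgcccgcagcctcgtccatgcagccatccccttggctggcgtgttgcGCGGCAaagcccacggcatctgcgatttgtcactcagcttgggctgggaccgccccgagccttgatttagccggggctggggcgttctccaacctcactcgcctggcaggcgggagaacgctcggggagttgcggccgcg
Zrsr1, chr11:22971755-22972054, plus strand: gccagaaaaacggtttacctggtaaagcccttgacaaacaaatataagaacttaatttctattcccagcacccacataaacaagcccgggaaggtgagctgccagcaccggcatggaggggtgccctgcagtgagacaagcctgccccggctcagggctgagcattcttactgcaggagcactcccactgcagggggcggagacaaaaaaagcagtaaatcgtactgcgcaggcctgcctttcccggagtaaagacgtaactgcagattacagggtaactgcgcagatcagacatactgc
Mcts2, chr2:152686898-152687197, plus strand: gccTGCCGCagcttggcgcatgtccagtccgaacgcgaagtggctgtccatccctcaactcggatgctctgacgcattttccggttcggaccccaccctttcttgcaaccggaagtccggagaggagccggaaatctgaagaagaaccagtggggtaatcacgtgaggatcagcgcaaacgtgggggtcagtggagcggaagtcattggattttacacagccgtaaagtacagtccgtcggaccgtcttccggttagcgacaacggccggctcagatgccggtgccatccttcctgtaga
Snrpn, chr7:60005150-60005449, minus strand: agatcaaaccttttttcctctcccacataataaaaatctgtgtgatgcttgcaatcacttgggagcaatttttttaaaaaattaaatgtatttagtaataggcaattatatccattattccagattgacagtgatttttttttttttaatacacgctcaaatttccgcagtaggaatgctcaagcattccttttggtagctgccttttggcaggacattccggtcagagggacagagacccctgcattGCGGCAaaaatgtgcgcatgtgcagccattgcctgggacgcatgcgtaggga
The windows of Peg3, Usp29, Kcnq1ot1, Tspan32 and Zrsr1 hold no copy of the hexamer. Those of Plagl1 and Mcts2 hold 1 copy each, and the Snrpn window is the 1 of 4 for that gene that holds a copy. Over all 42 genes, a window with TGCCGC was found for 11 of 33 genes (33.3%), against 13.1% of 27025 genes in the table, and 24.5% of the imprinted windows held it, against 11.6% of 32851 windows in all. Of the genes with a window and the hexamer, Plagl1 rose, Mcts2 and Snrpn fell, 6 did not pass and 2 (Igf2 and Zim1) were too dim to test. The motif AAGATGGC of YY1 was found in the Ube3a window, and CCGGAAGT, a motif of ETS factors, in those of Mkrn3 and Mcts2, against 2.75% and 3.89% of all windows. No match of one motif overlapped another. Imprinted windows held a median of 16 CpG dinucleotides, against 7 over all windows. The letters TGCCGC hold a CpG themselves, and their share was not compared with windows of like CpG content. A match describes the letters only, and no binding or methylation was measured.

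Paternally expressed Peg3 and Usp29, whose windows overlap, both rose. Peg3 encodes a zinc finger protein. Its scaled intensity (the array's 75th percentile set to 100) was 84.5, 80.5 and 76.2 on the SC1 arrays, against 59.4, 53.8 and 56.1 on the DMSO arrays. The groups did not overlap, and the log2 fold change was 0.51 with an SE of 0.0603 and an adjusted p of 0.00145 from limma. Usp29, a deubiquitinase gene, was at 10.1, 9.30 and 8.81 with SC1, against 6.23, 5.86 and 6.05 with DMSO, all SC1 arrays being higher. Its log2 fold change was 0.63 (SE 0.0621, adjusted p 0.000716), and with normexp background correction it was 0.26 to 0.37, still past the threshold. A second Peg3 probe gave 0.54. Zim1, the maternally expressed zinc finger gene of this cluster, was well above background on none of the 3 SC1 arrays and on 2 of the 3 DMSO arrays with 1 of its probes, and was not tested.

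Among the imprinted genes described here, 5 of the Kcnq1 cluster were tested. Of these, 2 rose and none fell, where 18.1% of all tested genes rose and 20.2% fell. The 5 are not the whole cluster. Ascl2 (0.62) and Cdkn1c (0.59), also of this cluster, are in the list of other imprinted genes and neighbours below, and both rose. That list also holds Osbpl5 (0.73), which rose, and Nap1l4 (-0.16) and Tssc4 (-0.02), which did not pass. Kcnq1ot1, the paternally expressed antisense RNA that silences neighbouring genes on its chromosome, was at 162.3, 121.1 and 148.7 with SC1, against 70.8, 75.4 and 91.9 with DMSO. Every SC1 array was above every DMSO array, and the log2 fold change was 0.86 (SE 0.143, adjusted p 0.00527), a 1.81-fold difference. A dimmer second probe gave 0.25 and missed the threshold at an adjusted p of 0.0544. Another 5 probes carry the name KCNQ1ot1 in the files without an accession or a strand. The brightest of them had 371.3, 404.8 and 388.9 with SC1, against 413.4, 423.9 and 412.8 with DMSO, the SC1 arrays lying below. Its log2 fold change of -0.1 had an adjusted p of 0.158, 1 further probe gave 0.19 (adjusted p 0.0649), and 3 were too dim to test. Had Kcnq1ot1 been read by name, as H19 was, this probe would have stood for the gene at -0.1 (adjusted p 0.142 over genes), without a call, so the rise of Kcnq1ot1 rests on which probes are taken for it.

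Tspan32, a tetraspanin gene of blood cells in the same cluster, was at 56.8, 64.0 and 58.3 with SC1, against 38.7, 38.0 and 36.0 with DMSO. These groups did not overlap, the log2 fold change was 0.67 (SE 0.0615, adjusted p 0.00056), and a second probe gave 0.65. A further Tspan32 probe was well above background on no array and was not tested. Phlda2, which restrains placental growth, the transporter gene Slc22a18 and the tetraspanin gene Cd81 did not pass, with log2 fold changes of 0.13, -0.09 and 0.15. Cd81 did pass after quantile normalization, at 0.25 with an adjusted p of 0.0295. Kcnq1, a potassium channel gene, was well above background on 1 array of each group and was not tested.

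H19, the maternally expressed noncoding RNA that shares its control region with Igf2, rose. Its brightest probe was at 64.4, 62.2 and 59.0 with SC1, against 50.5, 48.9 and 42.6 with DMSO, without overlap. The log2 fold change was 0.39 (SE 0.0774, adjusted p 0.0103), and the 5 probes named H19 ran from 0.24 to 0.50, of which 2 passed. Probes with an unlisted accession of H19 were not read, so the rise rests on probes taken by name. Igf2, the growth factor gene of the locus, was close to background: its probe averaged 2.62 ± 0.295 with SC1 and 2.34 ± 0.380 with DMSO (SD, n = 3 each), well above background on 2 arrays of each group.

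Airn, the paternal antisense RNA that silences Igf2r, was at 68.5, 62.1 and 64.9 with SC1, against 58.5, 57.9 and 55.9 with DMSO. The SC1 arrays were all higher, by 0.18 on the log2 scale (SE 0.0515, adjusted p 0.0362). This call was lost when SC1 replicate 1 or 3 or any of the 3 DMSO arrays was left out, with adjusted p-values of 0.0694 to 0.108. A second Airn probe was well above background on no array and was not tested, so the rise rests on 1 probe. Igf2r, the receptor that clears IGF2, was at 575.6, 522.3 and 559.9 with SC1, against 556.6, 557.4 and 588.3 with DMSO, and its log2 fold change was -0.04 with a 95% interval of -0.17 to 0.09.

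Plagl1, a paternally expressed zinc finger transcription factor gene, rose on its brightest probe. It was at 144.9, 131.2 and 131.8 with SC1, against 89.6, 89.8 and 95.7 with DMSO. The groups were apart, by 0.57 on the log2 scale (SE 0.058, adjusted p 0.00084). Of its 4 probes 3 passed, all higher, and the range was 0.15 to 0.66.

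Zrsr1, a paternally expressed retrogene that encodes a splicing factor and lies inside an intron of Commd1, was at 424.2, 379.2 and 401.4 with SC1, against 286.1, 278.8 and 269.0 with DMSO. It rose without overlap by 0.53 (SE 0.0561, adjusted p 0.00096). Commd1, its host gene and a regulator of copper and NF-κB, had a log2 fold change of -0.05 with an interval of -0.19 to 0.09. The difference between both changes was 0.58, and the arrays did not overlap in the log2 ratio of Zrsr1 to Commd1.

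**Figure D1:**
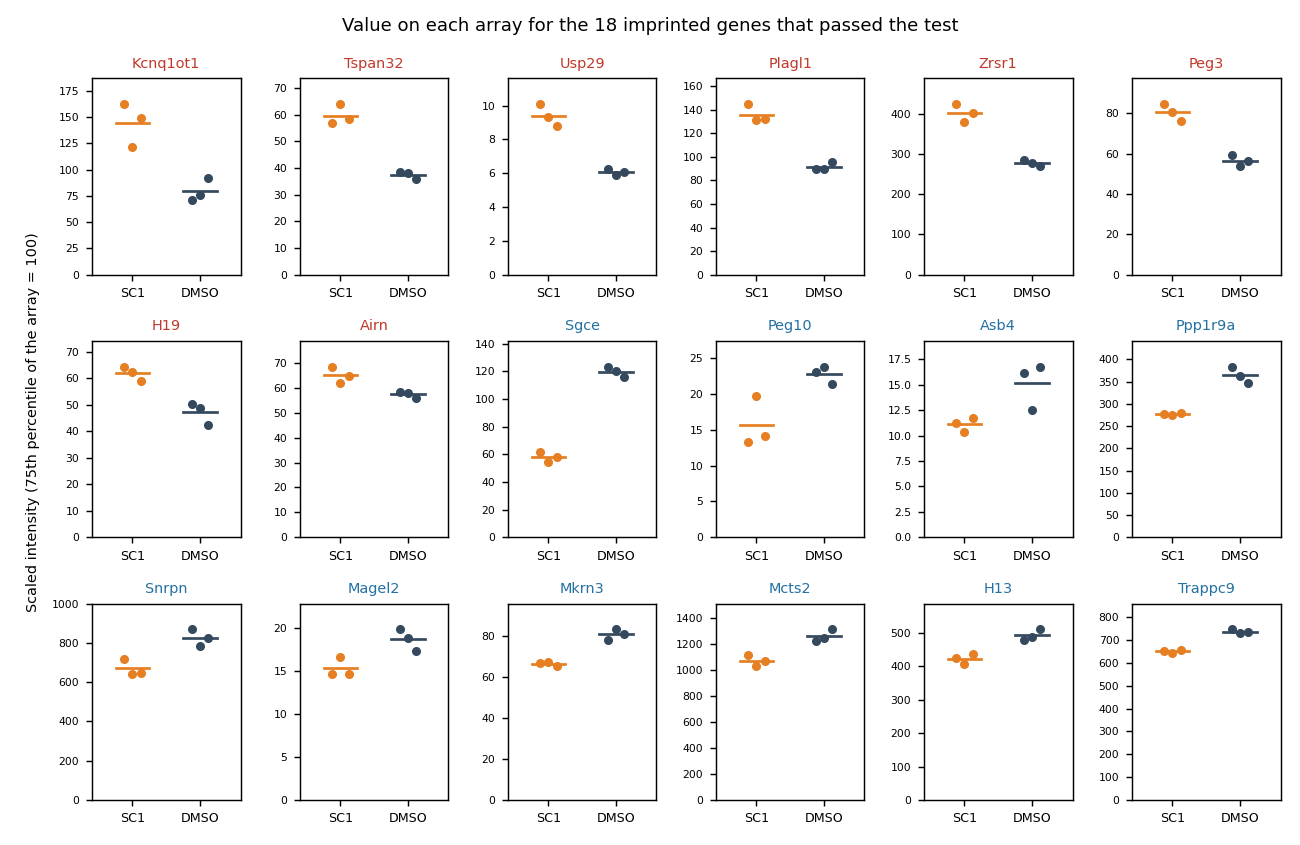
Scaled intensity on each of the 3 SC1 and 3 DMSO arrays is plotted for the 18 imprinted genes that passed, with the group mean as a line and the 75th percentile of an array at 100. In each panel the SC1 and DMSO points are apart, with a wide gap for Sgce and narrow gaps for Airn, Peg10, Asb4 and Magel2.

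All 4 tested genes of the Peg10 cluster fell. Sgce, which encodes epsilon-sarcoglycan and is transcribed away from Peg10, had the largest fall of the 38 genes. It was at 61.3, 54.5 and 58.3 with SC1, against 123.3, 120.0 and 115.7 with DMSO. No SC1 array came near the DMSO range, and the log2 fold change of -1.04 (SE 0.0578, adjusted p 9.04e-05) was a 2.06-fold difference. Peg10, a gene derived from a retrotransposon and needed in the placenta, was at 13.3, 19.8 and 14.2 with SC1, against 23.1, 23.9 and 21.5 with DMSO, with SC1 replicate 2 nearest to the DMSO arrays. Its log2 fold change was -0.55 (SE 0.153, adjusted p 0.0332), and a second probe gave -0.22 and did not pass.

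Both maternally expressed genes of this cluster fell as well. Ppp1r9a, which encodes the actin-binding protein neurabin, was at 276.8, 274.1 and 279.5 with SC1, against 383.6, 362.0 and 347.6 with DMSO. The groups did not overlap, and the log2 fold change was -0.4 (SE 0.0494, adjusted p 0.00179), with -0.33 and a call on its second probe. Asb4, a gene of an ankyrin repeat and SOCS box protein, was at 11.3, 10.4 and 11.8 with SC1, against 16.1, 12.5 and 16.8 with DMSO, with DMSO replicate 2 close to the SC1 arrays. Its log2 fold change of -0.44 (SE 0.122, adjusted p 0.0349) had no call on a second probe (-0.17). The call of Asb4 was also lost with the mean of its probes (-0.3, adjusted p 0.113) and with normexp background correction and 75th percentile scaling (-0.13, adjusted p 0.0882). Calls of Peg10 and Asb4 depended on single arrays. Leaving out SC1 replicate 1 or 3 or any DMSO array gave Peg10 an adjusted p of 0.0655 to 0.0949, and leaving out any array but DMSO replicate 2 gave Asb4 one of 0.061 to 0.102.

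In the Snrpn-Ube3a cluster 3 of 5 genes fell, all of them paternally expressed. Snrpn, which encodes a splicing protein of neurons and stem cells, was at 720.2, 642.7 and 648.8 with SC1, against 870.4, 783.3 and 828.2 with DMSO. The arrays did not overlap, the log2 fold change was -0.3 (SE 0.0663, adjusted p 0.0146), and its other probes gave -0.41, which passed, and -0.14, which did not. Magel2, a MAGE-family gene that acts with ubiquitin ligases in the hypothalamus, was at 14.7, 16.6 and 14.7 with SC1, against 19.9, 18.9 and 17.4 with DMSO. Its arrays were apart by a small gap, and its log2 fold change of -0.29 (SE 0.0765, adjusted p 0.0291) lost the call without SC1 replicate 1 or 3 or DMSO replicate 1 or 2, at adjusted p-values of 0.0822 to 0.0869.

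Mkrn3, a RING finger gene that restrains puberty, was at 66.7, 67.3 and 65.6 with SC1, against 78.1, 83.3 and 81.0 with DMSO. It fell by 0.28 on the log2 scale (SE 0.0427, adjusted p 0.00384), with no overlap, while a second probe of the gene gave -0.05 and did not pass. Ndn, which encodes necdin, was lower on all 3 SC1 arrays (40.1, 42.0 and 36.0, against 43.7, 45.4 and 47.5 with DMSO) but missed the threshold, with a log2 fold change of -0.21 and an adjusted p of 0.0607. Ube3a, the maternally expressed ubiquitin ligase gene of Angelman syndrome, had -0.03 with an interval of -0.17 to 0.11.

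Mcts2 and its host gene H13 both fell. Mcts2 is a paternally expressed retrogene of a translation factor and lies in an intron of H13, which encodes signal peptide peptidase. It was at 1119, 1031 and 1067 with SC1, against 1224, 1250 and 1314 with DMSO. The difference of -0.24 (SE 0.0516, adjusted p 0.0148) left no overlap. H13 was at 424.2, 407.0 and 438.2 with SC1, against 479.5, 489.4 and 511.7 with DMSO, and its brightest probe fell by 0.22 (SE 0.049, adjusted p 0.0152). The 4 probes of H13 did not run together: 2 fell, by up to 0.35, and the others gave 0.07 and 0.14 without passing, so that their mean gave -0.09 and no call (adjusted p 0.115). Without DMSO replicate 3 the adjusted p of H13 was 0.0514.

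Trappc9, a gene of vesicle transport and NF-κB signalling, was at 652.4, 641.6 and 658.3 with SC1, against 747.5, 729.2 and 734.3 with DMSO. It fell by 0.18 (SE 0.0375, adjusted p 0.0125) without overlap, and by 0.11 in the authors' deposited log2 matrix. Peg13, a paternal noncoding RNA from an intron of Trappc9, was at 4.40, 3.54 and 4.32 with SC1, against 2.94, 3.40 and 3.40 with DMSO. Its SC1 arrays were all higher, but the log2 fold change of 0.33 had an adjusted p of 0.0549. Kcnk9, the potassium channel gene of this cluster, had 0.12.

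Neighbours were compared by the difference of their log2 fold changes in 8 pairs, with a two-sided exact permutation test over the 6 arrays, whose smallest possible p is 0.1. Besides Zrsr1 and Commd1, the ratio of the groups did not overlap for Peg13 against Trappc9 (difference 0.51), Peg10 against Sgce (0.49), Airn against Igf2r (0.22) and Peg3 against Usp29 (-0.12). Each of these 5 pairs reached p = 0.1 in the exact test, 0.16 after adjustment over the 8 pairs, so no pair could pass. The other 3 pairs, Mcts2 with H13 (-0.01), Nnat with Blcap (-0.1) and Nespas with Gnas (-0.08), overlapped, at exact p-values of 0.7, 0.5 and 0.6. Of all tested genes taken singly, 52.1% had groups without overlap, and the share among other pairs of genes was not computed.

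The other genes did not pass. Mest, a hydrolase-fold gene of growing mesoderm, was at 1583, 1550 and 1639 with SC1, against 1558, 1522 and 1446 with DMSO, and its log2 fold change was 0.08, with 0.06 to 0.10 over its 3 probes. Copg2, a coat protein gene beside it, had -0.01. Grb10, an adaptor gene that restrains insulin and IGF receptors, had 0.01 and Ddc, which makes dopamine and serotonin, had 0.02. Nnat and Blcap had -0.05 and 0.05, and Gnas, the gene of the stimulatory G protein subunit, and its antisense Nespas had 0.03 and -0.05.

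Impact, which restrains the stress kinase GCN2, had 0.07 and the phosphatase gene Inpp5f -0.1, and Nap1l5 had -0.33 with a wide interval of -0.79 to 0.13. For 13 of the 20 genes that did not pass, the 95% interval lay within 0.3 of 0 on the log2 scale. Of these 20 genes 12 passed under no alternative. Quantile normalization gave calls for Impact (0.17, adjusted p 0.0245), Mest (0.14, adjusted p 0.0484) and Ndn (-0.23, adjusted p 0.0423) besides Cd81, and the mean of its probes one for Ddc (0.16, adjusted p 0.0347). Without SC1 replicate 2 calls were made for Peg13 (0.43, adjusted p 0.0165) and Inpp5f (-0.31, adjusted p 0.0451), and normexp with 75th percentile scaling gave one for Kcnk9 (0.18, adjusted p 0.0148). For Ddc and Impact a dimmer probe did pass, at 0.30 and 0.28 with adjusted p-values of 0.00379 and 0.00881 over all probes. Rasgrf1, a Ras exchange factor gene, was well above background on none of the 3 SC1 arrays and on at most 1 DMSO array, and was not tested.

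Of 75 probes for the 42 genes 66 were bright enough to be tested one by one, and 28 of them passed (15 higher, 13 lower), where 36.3% of all probes passed. In 19 genes with several tested probes, none had probes that passed in opposite directions. All tested probes passed in the same direction in 3 of them (Tspan32, Peg3 and Ppp1r9a), some passed in 11, and none passed in 5. The mean over the probes of a gene gave 0.55 for Kcnq1ot1 and -0.16 for Mkrn3, both still past the threshold.

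**Figure D2:**
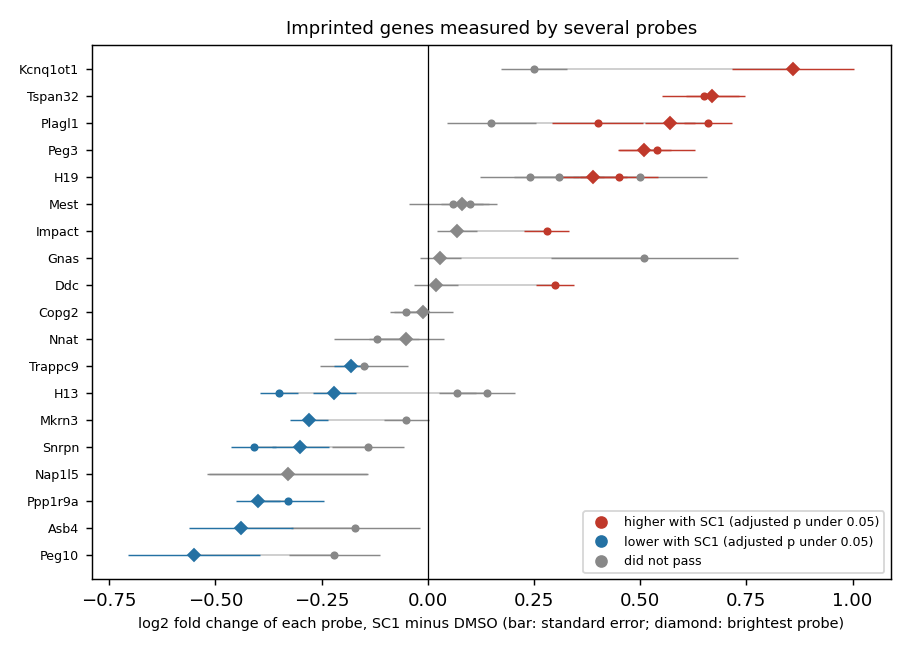
The log2 fold change of each tested probe, SC1 minus DMSO, is plotted with its standard error for the 19 imprinted genes with several probes, and the diamond marks the brightest probe. Probes of Peg3, Tspan32 and Ppp1r9a lie close together, while those of Kcnq1ot1 run from 0.25 to 0.86 and those of H13 lie on both sides of 0.

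The arrays shared 1 slide and 1 scan. The DMSO arrays stood at row 1, columns 1 to 3, SC1 replicate 1 at row 1, column 4, and SC1 replicates 2 and 3 at row 2, columns 1 and 2. With the row as a block, so that SC1 replicate 1 alone was set against DMSO, 11 of the 18 calls held, 7 higher and 4 lower, and 7 genes did not pass. Their log2 fold changes under the row block were 0.25 for Airn, -0.42 for Asb4, -0.22 for H13, -0.35 for Magel2 and -0.18 for Trappc9, each at least as large as without the block or within 0.02 of it, and -0.17 for Mcts2 and -0.2 for Snrpn, which were smaller. With the column as a block, so that SC1 replicates 2 and 3 were set against DMSO replicates 1 and 2, 6 calls held: Kcnq1ot1 at 0.88, Tspan32 at 0.67, Usp29 at 0.58, Plagl1 at 0.55, Peg3 at 0.47 and Sgce at -1.11. The blocks set fewer arrays against each other, and the part of position in the changes was not tested further. Scaling by 8 spike-in probes left 10 calls, 6 higher and 4 lower. Under normexp background correction and 75th percentile scaling, Peg10 was at -0.32 and Magel2 at -0.14, and both passed.

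Markers of the cell types that a stem cell culture can hold moved in both directions within most lists, and their sums on the same scale were set mainly by a few bright genes. Beside the counts of markers that rose or fell stand the 38.4% of all tested genes that passed. The 10 embryonic stem cell markers summed to 68800 to 72600 with SC1 and 69600 to 72100 with DMSO, most of it from Dppa5a. Each was well above background, 5 fell, Utf1 (-2.36) and Tdgf1 (-1.39) the most, and Fgf4 rose (0.89). Sums of 8 trophoblast markers were 2950 to 3160 with SC1 and 1220 to 1290 with DMSO, nearly all from Tfap2c, which averaged 2910 with SC1 and 1120 with DMSO. In that list 3 rose, 2 fell (Cdx2 at -1.49 and Eomes at -0.39), and Elf5 and Hand1 were above background on no array. Cdx2 was well above background on no SC1 array, so its fall is bounded only at 1.38-fold or more. For 6 neural markers the sums were 1090 to 1160 with SC1 and 850 to 862 with DMSO, with Tubb3 averaging 768 with SC1 and 400 with DMSO, while 3 of the 6 fell (Pax6, Zic1 and Sox1), 2 rose and the median was -0.3.

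Fibroblast markers summed to 217 to 225 with SC1 and 257 to 277 with DMSO. The lower sum came from Thy1, at 67.7 with SC1 and 144 with DMSO, while Col1a1, Col3a1 and Pdgfrb rose and Lum, Postn and Twist2 were above background on no array. Primitive endoderm markers summed to 202 to 216 with SC1 and 215 to 224 with DMSO, with 3 of 8 higher and 1 lower. Mesoderm markers summed to 1150 to 1180 with SC1 and 1020 to 1130 with DMSO, nearly all from Kdr, with Mixl1, Hand2 and Foxf1 above background on no array. Kdr did not pass (0.12, adjusted p 0.117 from limma), while Mesp1 fell (-2.84, adjusted p 0.000248). Mesp1 was well above background on no SC1 array, so its fall is bounded only at 1.81-fold or more. The part of any such cells in the imprinted gene changes was not tested.

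Other imprinted genes and their neighbours, a list of 30 with 23 tested, held 9 that rose and 8 that fell (73.9% called, where 38.4% of all tested genes were), with a median of 0.02. The 4 with the smallest p all rose. Calcr, the calcitonin receptor gene beside the Peg10 cluster, was at 56.3, 55.5 and 55.4 with SC1, against 21.8, 23.0 and 22.9 with DMSO, a difference of 1.3 on the log2 scale (SE 0.0409, adjusted p 1.56e-05). The groups were far apart in this gene, while the 4 genes of the cluster itself fell. Sfmbt2, a Polycomb-group gene needed in trophoblast, had 0.96 (SE 0.0389), and Ascl2 and Cdkn1c, a placental transcription factor and a cell cycle inhibitor gene of the Kcnq1 cluster, had 0.62 (SE 0.041) and 0.59 (SE 0.0393). Pon3 and Pon2, paraoxonase genes between Ppp1r9a and Asb4, had -1.33 (adjusted p 0.000368) and -0.9 (adjusted p 0.000246). Casd1, a gene of the same list beside Sgce, rose by 0.31 (SE 0.0624, adjusted p 0.0106). Pon3, Pon2 and Casd1 were picked for their place after their values were seen.

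Among 22 tested genes that set, keep or erase imprints, 2 rose, 10 fell and 10 did not pass (54.5% called, where 38.4% of all tested genes were), with a median of -0.13. Zfp57, the gene of the zinc finger protein that keeps methylation at control regions, was at 163.8, 141.2 and 141.8 with SC1, against 542.0, 515.1 and 543.6 with DMSO. No SC1 array came near the DMSO range, and the log2 fold change was -1.84 (SE 0.0707, adjusted p 2.84e-05), 3.59-fold. Dnmt3l, a cofactor of new methylation in germ cells, had -0.86 (SE 0.0405), and Dnmt3b, a methyltransferase for unmethylated DNA, had -0.77 (SE 0.0432). Tet1, which oxidises methylcytosine, had -0.91 (SE 0.0578). Trim28, the partner of ZFP57, had -0.12 and did not pass (adjusted p 0.0679).

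**Figure D3:**
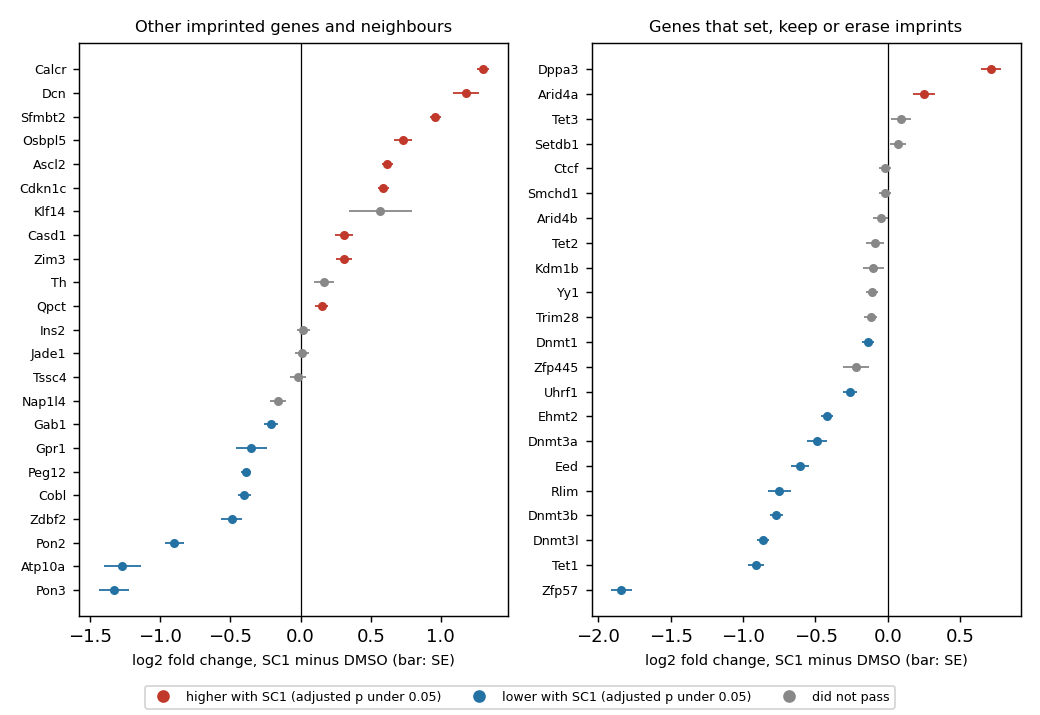
The log2 fold change of each tested gene, SC1 minus DMSO, is plotted with its standard error for other imprinted genes and neighbours (left) and for genes that set, keep or erase imprints (right). Calcr at 1.3 and Pon3 at -1.33 mark the ends of the left panel, and Zfp57 at -1.84 lies lowest in the right panel.

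Around IGF signalling, in which Igf2, Igf2r and Grb10 act, 3 of 12 genes rose and 5 fell (66.7% called, against 38.4% of all tested genes), with a median of -0.02. Igfbp2, which binds IGFs in the medium, was at 2662, 2825 and 2584 with SC1, against 4272, 4237 and 4109 with DMSO, a fall of 0.65 (SE 0.0491, adjusted p 0.000275). These groups did not overlap. Igfbp4 had -0.79 (SE 0.0787), the receptor gene Igf1r had -0.34 (SE 0.0506), and Igfbp5 rose by 0.66 (SE 0.0838).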

How the data were processed

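Per the labels, total RNA was labelled with Cy3 for single-colour Agilent arrays, 1 per sample. Spots were read with Agilent Feature Extraction 10.7, per the submitters' processing notes. The deposited array files give the intensity of each spot after the authors' background correction, and, per the file headers, other columns flag spots as outlying or well above background. A further deposited table holds log2 values per array, whose method is not given in the sources used here. Its values differed from quantile-normalized log2 signals by a median of 0.0397. As alternatives, the deposited values and quantile normalization were therefore nearly the same check.

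The processed intensity was put on a log2 scale, spots of 1 probe were averaged, and the 75th percentile of the array was subtracted. A probe was kept if either group had it well above background on each of its 3 arrays, and the brightest probe stood for a gene. Accessions were matched to RefSeq. SC1 was compared with DMSO over 25421 genes and intervals with limma 3.58.1 in R 4.3.3 (two-sided, Benjamini-Hochberg, threshold 0.05). Between 63.2% and 65.6% of 55681 probes were well above background, no spot was saturated, and 137 to 201 outlier spots per array were left out. The number of arrays limits the precision. The SD of the log2 difference of 2 arrays was 0.222 to 0.256 within groups and 0.491 to 0.509 across groups. In simulated data with 25421 genes, 50 genes were changed at each of 1.25-, 1.5-, 2- and 4-fold. The numbers recovered were 10, 35, 42 and 44, with 10 false calls. Far fewer genes were changed than the 38.4% that passed in the real data, which makes the adjusted threshold stricter. These numbers therefore do not give the share of real changes found here.

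All members are named, those that passed with every array, and each further list by up to 4 passing genes of smallest p. Members and lists were chosen with earlier results of these data known. Alternatives changed scaling, background, filter, probe choice, blocks, thresholds and left-out arrays.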

Additional observations from a re-analysis of the deposited data

How the results depend on the processing

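Under 21 alternatives that kept the threshold, Kcnq1ot1, Tspan32, Usp29, Plagl1, Peg3 and Sgce, 6 of the 18 genes that passed, passed each time. None of the 18 had a value of the other sign, which left-out arrays and position blocks could not give because their groups do not overlap. Of the 20 that did not pass, 12 took both signs. Read from probes by name, a choice made after the data were seen, Kcnq1ot1 reversed to -0.1 (adjusted p 0.142), leaving 17 imprinted genes, 7 of them higher. The count of 18 imprinted genes was 10 with spike-in scaling (4 lower), 9 at an adjusted p under 0.01 (3 lower), 4 at a change of at least 1.5-fold (3 higher, 1 lower), and, with blocks added after the data were seen, 6 with the slide column (5 higher, 1 lower) and 11 with the slide row (4 lower). The count of 9752 genes was 5067 with spike-in scaling, 5791 at an adjusted p under 0.01, 2874 at 1.5-fold, 3324 with the slide column and 5542 with the slide row. Leaving out each array gave 14 to 20 imprinted genes, 7 to 9 higher and 7 to 11 lower, and 7790 to 8447 genes in all. SC1 and DMSO arrays with the same number had deviations that correlated at -0.013, -0.036 and -0.015, and no SC1 array correlated best with its own number, so the numbers were not read as pairs. The replicate block gave 14 imprinted genes and 7914 in all, and it ended the calls of Airn (adjusted p 0.0712), Magel2 (0.0503), Mcts2 (0.05) and Trappc9 (0.0505). The cause of these differences was not tested. Small changes are limited by the 3 arrays per group, and dim probes such as those of Igf2 lie near background.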
